A study of Homo sapiens with 6 samples.

Results

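Chaperones and co-chaperones outside the HSP70 family are described here, taken from a fixed list of symbols and found in the table of FPKM values (fragments scaled by transcript length and by the mapped fragments of the library) by their Ensembl identifiers. They were 46 of the 58288 genes in the table. All 46 averaged 1 FPKM or more over the 6 libraries and were tested. The list holds the HSP90 proteins, the HSP110 protein HSPH1, HSP40 (J-domain) proteins, small heat shock proteins, the mitochondrial chaperonin, BAG proteins, co-chaperones of HSP90 and HSP70, the heat shock factors HSF1 and HSF2 with the regulator HSBP1, the collagen chaperone SERPINH1 and the CCT complex.

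The study asked how the SUMO status of the transcription factor MYB shapes its gene programs in K562, a human erythroleukemic cell line. Both groups were K562 single-cell clones under 200 µg/ml G418, transfected with the siRNA si2992 (siU2992) against the 3′-UTR of endogenous MYB, with RNA taken 24 h later. The 2KR-MYB rescue stably expressed 3xFLAG-2KR-Myb-HA, whose SUMO-accepting lysines are mutated, and the ANAA-MYB rescue stably expressed 3xFLAG-ANAA-Myb-HA, whose SUMO-binding motif is mutated. There were 3 replicates of each rescue, and each mutant was represented by 1 clone, so the mutant and the clone cannot be told apart, and the p-values measure only the spread between these libraries. The columns for control, knockdown and other rescues were not used here. In cultured cells measured in bulk, fewer cells expressing a transcript and less of it per cell cannot be told apart.

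Chaperones bind proteins that are unfolded, newly made or in transit and keep them from aggregating. HSP70 works in a cycle: HSP40 proteins deliver clients and drive ATP hydrolysis, while exchange factors such as HSP110 and BAG proteins release the nucleotide, and clients such as kinases and steroid receptors are passed on to HSP90 with the help of co-chaperones. The CCT complex folds actin and tubulin inside a chamber, HSP60 with its lid HSP10 does the same for mitochondrial proteins, and heat shock factors drive the transcription of many of these genes under proteotoxic stress. In the erythroid lineage, chaperones are known for protecting GATA1 and for the assembly of hemoglobin.

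The FPKM sums lay between 579920 and 601877 in the 2KR-MYB libraries and between 583555 and 633662 in the ANAA-MYB libraries, and the depth behind them is unknown. Libraries of one rescue correlated at 0.983 to 0.989 and those of different rescues at 0.968 to 0.973 (Pearson's r across the tested genes). MYB itself measured 69.0, 61.2 and 67.5 FPKM with 2KR-MYB and 53.6, 55.3 and 62.0 FPKM with ANAA-MYB, in a value that cannot separate the endogenous transcript from the transgene. All 9 erythroid and K562 markers were expressed, GATA1 at 74.9 to 111 FPKM, while the markers CD2, MS4A1, CD14 and CDH1 of other cell types stayed under 1 FPKM. CD3D (26.1 to 62.7 FPKM), LYZ (9.11 to 24.2 FPKM) and EPCAM (43.1 to 50.2 FPKM) did not.

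Of the 46 chaperones, 11 were higher in the 2KR-MYB rescue at an adjusted p under 0.01 and 0 were lower (limma on log2(FPKM + 1), Benjamini-Hochberg over 12634 tested genes). Over all tested genes 5.57% were called higher and 7.42% lower, so the members' share of higher calls stood above the background and their share of lower calls below it. At an unadjusted p under 0.05, 22 members were higher and 2 lower, against 17.8% higher and 21.6% lower of all tested genes. The 11 were the HSP110 gene HSPH1, the cytosolic and nuclear HSP40 genes DNAJB1, DNAJB2, DNAJB4 and DNAJB6, the ER HSP40 genes DNAJB9, DNAJB11 and DNAJC3, the HSP10 gene HSPE1, the exchange factor gene BAG3 and the HSP70 co-chaperone gene ST13. The HSP90 genes, the heat shock factors and the CCT complex gave no call. The median log2 fold change of the 46 was 0.17, against -0.015 over all tested genes, and 35 of the 46 values lay above 0. The number of members called fell to 5 without 2KR-MYB replicate 1, to 5 without 2KR-MYB replicate 2, to 6 without ANAA-MYB replicate 1 and to 7 without ANAA-MYB replicate 2. The shares over all tested genes without these libraries are not given here.

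**Figure D1:**
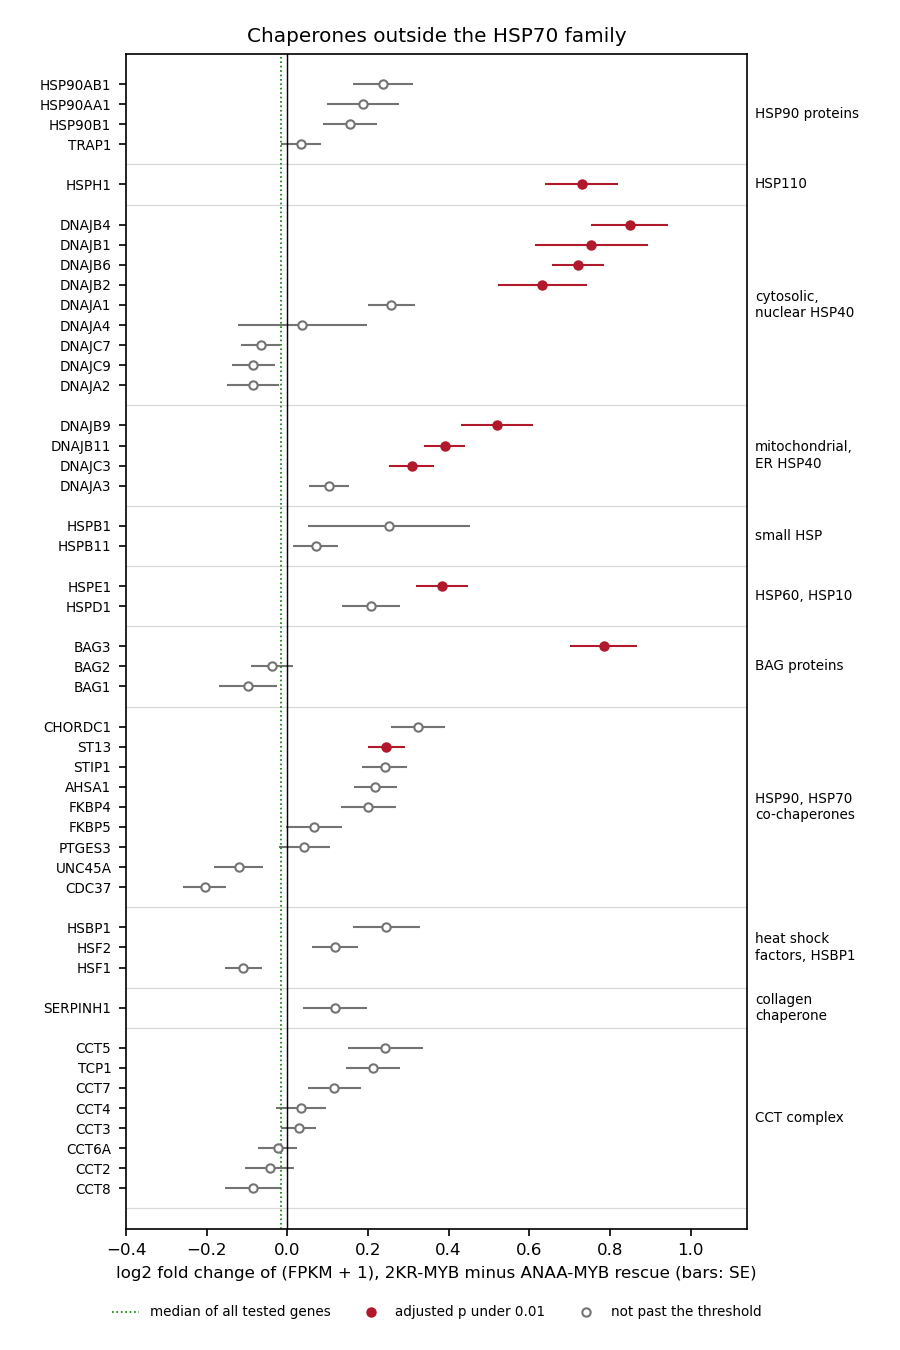
Log2 fold change of (FPKM + 1), 2KR-MYB minus ANAA-MYB rescue, for the 46 chaperones grouped by role, with bars for the standard error, filled red points for an adjusted p under 0.01 and a dotted line at the median of all tested genes. The 11 filled points lie between 0.25 and 0.85, and the 8 CCT subunits lie between -0.085 and 0.24 with none filled.

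For 24 members, among them all 11 called, the lowest 2KR-MYB library exceeded the highest ANAA-MYB library, and for 2, CDC37 and HSF1, the reverse held. Over all tested genes these shares were 20.1% and 24.8%. The 46 genes together made up 2.24%, 2.30% and 2.14% of the FPKM sum in the 2KR-MYB libraries and 1.87%, 1.84% and 1.89% in the ANAA-MYB libraries. Most of them are abundant: 44 of the 46 averaged 10 FPKM or more, and 10 of these 44 were called higher, against 4.8% of all tested genes at that level.

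Heat shock factors bind rows of short inverted units, and such a row stood in the reference promoter of 4 members, printed here because they place a known control element beside the values that follow. The promoters came from RefSeq (GRCh38.p14) and ran from 250 bases before the start of the transcript to 50 after it, and 42 of the 46 members had one (not FKBP4, ST13, HSF1 and CCT6A). The sequences are written 5′ to 3′ on the strand of the gene, and the capitals mark the units GAA and TTC that follow each other with 2 bases between.
DNAJB6: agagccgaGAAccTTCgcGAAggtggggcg
DNAJA1: gccgggcgGAActTTCcaGAAcgctcggtg
CHORDC1: ccgGAAaaTTCgcGAAggTTCctGAAacgc
SERPINH1: ttccaactTTCcaGAAgtTTCtcgggacgg
These stretches are at chr7:157336865-157336894 (plus strand), chr9:33025268-33025297 (plus strand), chr11:90223083-90223112 (minus strand) and chr11:75562169-75562198 (plus strand). CHORDC1 had a row of 5 units, from 60 to 38 bases before the start, and the other 3 genes had rows of 3 units. The row of DNAJB6 began 131 bases before the start, that of SERPINH1 began 76 bases before it, and that of DNAJA1 lay within the first transcribed bases. A row of at least 3 units was found in 9.52% of the members' promoters, against 0.487% of all 27305 promoters in the table and 0.323% of those of tested genes. DNAJB6 was the only one of the 4 past the threshold in the comparison of rescues.

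The shorter form, GAANNTTC or TTCNNGAA (each its own reverse complement, so one search covers both strands), was present in 8 member promoters (19.0%), in 13.7% of all promoters and in 9.95% of those of tested genes. Every row of 3 units also holds it. Among the 10 called members with a promoter it was present in 1 (10.0%), and among the 32 members not past the threshold with a promoter in 7 (21.9%). The search for rows of 3 units, and the search for the ER element given with the ER genes, were added after the values were seen. A match is a string of letters in the reference, not a measured binding site. Only 1 start per gene and only exact units were searched, so a gene without a match may still hold an element. The window of DNAJB1, chr19:14529222-14529521, lay inside the span of that gene (chr19:14514769-14560391) and far from its upstream end. The shares of called and other members therefore do not show which of them lack the element.

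HSP40 proteins carry the J domain that stimulates the ATPase of HSP70, and the cytosolic and nuclear ones held the largest difference of the list. Of these, 4 of 9 were called higher, against 5.57% of all tested genes. DNAJB4 (ENSG00000162616, chr1:77979175-78017964), a heat-inducible relative of DNAJB1, was at 111, 126 and 99.2 FPKM with 2KR-MYB against 59.5, 68.3 and 57.1 FPKM with ANAA-MYB. The groups were far apart, with the lowest 2KR-MYB library well above the highest ANAA-MYB library. The log2 fold change was 0.85 ± 0.096 (SE, n = 3 per rescue; adjusted p = 0.000656, limma), which is 1.82-fold in the mean FPKM.

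DNAJB6 (ENSG00000105993, chr7:157337004-157417439), a suppressor of polyglutamine aggregation, was at 171, 180 and 163 FPKM with 2KR-MYB against 98.8, 113 and 99.3 FPKM with ANAA-MYB. All libraries of one rescue stood well apart from those of the other, and the log2 fold change was 0.72 ± 0.065 (adjusted p = 0.000254, limma), the smallest adjusted p among the 46. DNAJB1 (ENSG00000132002, chr19:14514769-14560391), the major stress-inducible HSP40, was at 253, 262 and 173 FPKM against 132, 137 and 131 FPKM. The replicate 3 library of 2KR-MYB was the low one of its group but still above all ANAA-MYB libraries, and the log2 fold change was 0.75 ± 0.14 (adjusted p = 0.00608, limma). Without 2KR-MYB replicate 3 the DNAJB1 difference was 0.94 (adjusted p = 0.0001, limma), and with any of the other 5 libraries left out the adjusted p lay between 0.0209 and 0.0252.

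DNAJB2 (ENSG00000135924, chr2:219279366-219286895), best known from neurons, was at a much lower level than these 3. It was at 8.70, 9.06 and 8.89 FPKM with 2KR-MYB against 5.90, 6.07 and 4.31 FPKM with ANAA-MYB, and the replicate 3 library of ANAA-MYB was the lowest. The log2 fold change was 0.63 ± 0.11 (adjusted p = 0.00451, limma), and the adjusted p rose to 0.0109 without ANAA-MYB replicate 1 and to 0.0155 to 0.0207 with a 2KR-MYB library left out.

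The DNAJA proteins have the zinc-finger region of the first HSP40 described in bacteria, and none of the 3 cytosolic ones was called. DNAJA1, the most abundant of them and a partner of the constitutive HSP70, was at 276, 294 and 276 FPKM against 221, 236 and 251 FPKM. Its groups did not overlap, but the log2 fold change of 0.26 ± 0.059 missed the threshold (adjusted p = 0.0145, limma). DNAJA2 gave -0.085 and DNAJA4, at a mean near 1 FPKM in both rescues, gave 0.037. The remaining HSP40 genes of this class, DNAJC7, which carries TPR repeats as well as a J domain, and DNAJC9, a histone chaperone, gave -0.066 and -0.084. An antisense gene listed as DNAJC9-AS1 lay between 4.24 and 5.52 FPKM, far below DNAJC9 itself at 62.2 to 71.4 FPKM. The ratio of DNAJB1 to DNAJA1 within a library, which does not depend on the scaling between libraries, was 0.916, 0.892 and 0.628 with 2KR-MYB and 0.599, 0.58 and 0.522 with ANAA-MYB. Every 2KR-MYB value lay above every ANAA-MYB value, and the exact two-sided permutation test gave p = 0.1, the smallest possible for 3 against 3 (0.15 after Benjamini-Hochberg adjustment over the 6 ratios computed).

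HSPH1 (ENSG00000120694, chr13:31134973-31162388) encodes the HSP110 protein HSP105, a nucleotide exchange factor of HSP70 that can itself hold unfolded clients. It was at 268, 277 and 218 FPKM with 2KR-MYB against 145, 152 and 160 FPKM with ANAA-MYB. Although the replicate 3 library of 2KR-MYB was the lowest of its group, no ANAA-MYB library reached it. The log2 fold change was 0.73 ± 0.091 (adjusted p = 0.000989, limma), and the adjusted p stayed between 0.00027 and 0.00593 with any 1 library left out.

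The BAG proteins are exchange factors that bind HSP70 through the BAG domain, and BAG3, the stress-inducible one that couples HSP70 to selective autophagy, was the one called. BAG3 (ENSG00000151929, chr10:119651380-119677819) was at 84.7, 89.8 and 71.4 FPKM against 49.0, 44.8 and 47.0 FPKM, with no overlap and a log2 fold change of 0.79 ± 0.083 (adjusted p = 0.000495, limma). BAG1, which also binds BCL2, was at 22.4 ± 2.30 FPKM with 2KR-MYB and 23.9 ± 0.312 FPKM with ANAA-MYB (SD, n = 3), and BAG2, an inhibitor of the ubiquitin ligase CHIP, was at 13.9 ± 0.205 and 14.4 ± 0.456 FPKM. Neither separated the rescues, and the log2 fold changes were -0.097 and -0.039.

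**Figure D2:**
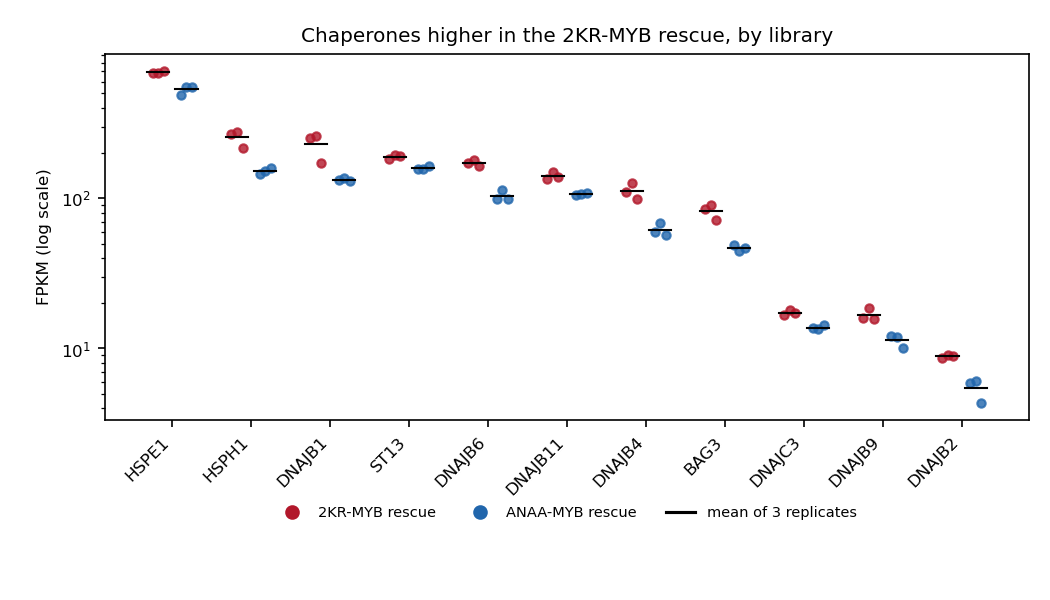
FPKM of the 11 chaperones called higher, on a log scale, with 1 point per library (red for the 2KR-MYB rescue, blue for the ANAA-MYB rescue) and a line at the mean of 3 replicates. The red points lie above the blue points for every gene, and in HSPH1, DNAJB1 and BAG3 the rightmost red point (replicate 3) lies below the other red ones.

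The HSP40 proteins of the ER and the mitochondrion are separated here because they serve the HSP70 proteins of those compartments. All 3 of the ER HSP40 members were called higher, where 5.57% of all tested genes were. HSP90B1 and SERPINH1, ER members outside the HSP40 family, were not called. DNAJB9 (ENSG00000128590, chr7:108569874-108574850), which represses the ER stress sensor IRE1 together with the ER HSP70, was at 16.0, 18.6 and 15.6 FPKM with 2KR-MYB against 12.1, 11.9 and 10.1 FPKM with ANAA-MYB. The rescues did not overlap, and the log2 fold change was 0.52 ± 0.089 (adjusted p = 0.00427, limma). The call of DNAJB9 held without 2KR-MYB replicate 3 (adjusted p = 0.00815, limma), while with any of the other libraries left out the adjusted p was 0.0112 to 0.0156.

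DNAJB11 (ENSG00000090520, chr3:186570720-186585793), an ER co-chaperone that binds unfolded and secretory proteins, was at 135, 150 and 139 FPKM against 106, 107 and 109 FPKM. The 3 ANAA-MYB libraries lay close together and below all 2KR-MYB libraries, and the log2 fold change was 0.39 ± 0.051 (adjusted p = 0.00133, limma). DNAJC3 (ENSG00000102580, chr13:95677139-95794988), first known as the kinase inhibitor p58IPK, was at 16.6, 18.0 and 17.2 FPKM against 13.6, 13.4 and 14.3 FPKM. Its log2 fold change was 0.31 ± 0.056 (adjusted p = 0.00536, limma), and with 1 library left out the adjusted p lay between 0.0104 and 0.0249, above the threshold each time. The mitochondrial member DNAJA3 was at 60.7 ± 2.71 FPKM with 2KR-MYB and 56.5 ± 1.61 FPKM with ANAA-MYB, without overlap, and its log2 fold change of 0.10 did not pass (adjusted p = 0.163, limma).

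The promoter element known from ER chaperone genes is CCAAT and CCACG with 9 bases between. It was searched on both strands because the ER HSP40 members were called higher. Among the members it was present in HSP90B1 alone, the gene of the ER HSP90 protein, and not in the windows of DNAJB9, DNAJB11 and DNAJC3. The capitals mark its parts, read on the opposite strand in the second stretch.
HSP90B1, distal: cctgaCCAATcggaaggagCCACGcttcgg
HSP90B1, proximal: gggtgCGTGGtgcggcgcgATTGGtgggtt
XBP1: gctggCCAATcgcggagggCCACGaccgta
The HSP90B1 stretches are at chr12:103930211-103930240 and chr12:103930316-103930345 (plus strand), where the elements begin 194 and 89 bases before the start. The stretch of XBP1, a transcription factor of the ER stress response and not a member, is at chr22:28800597-28800626 (minus strand). The element was present in 0.0806% of all promoters and in 0.151% of those of tested genes. It was present in 5 of the 15 promoters found for a list of ER folding genes (33.3%). Of these 5 genes, XBP1 alone was called in the comparison of rescues.

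HSP90 proteins bind clients late in folding and depend on ATP and on co-chaperones, and 0 of the 4 passed the threshold in limma. At an unadjusted p under 0.05, 2 were higher and 0 lower, where 17.8% and 21.6% of all tested genes were. HSP90AB1, the constitutive cytosolic form and the most abundant member, was at 1918, 2106 and 1963 FPKM with 2KR-MYB against 1563, 1691 and 1831 FPKM with ANAA-MYB. These groups did not overlap, and the log2 fold change was 0.24 ± 0.075 (adjusted p = 0.0493, limma). HSP90AA1, the inducible cytosolic form, was at 1440, 1550 and 1375 FPKM against 1157, 1248 and 1439 FPKM, and the highest ANAA-MYB library reached into the 2KR-MYB range. Its log2 fold change was 0.19 ± 0.089 (adjusted p = 0.156, limma).

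HSP90B1 was at 722, 826 and 766 FPKM against 653, 696 and 727 FPKM, overlapping, with a log2 fold change of 0.16 ± 0.067 (adjusted p = 0.125, limma). TRAP1, the mitochondrial HSP90, was at 157, 170 and 160 FPKM against 163, 154 and 159 FPKM, with a log2 fold change of 0.034 ± 0.049 (adjusted p = 0.636, limma). The ratio of HSP90AA1 to HSP90AB1 was 0.729 ± 0.026 with 2KR-MYB and 0.755 ± 0.027 with ANAA-MYB (SD, n = 3; exact permutation p = 0.4). Rows named as processed copies of these genes are few and low: none of the 5 rows related to HSP90AA1, the 6 related to HSP90AB1 or the 2 related to HSP90B1 reached 1 FPKM.

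Among the co-chaperones of HSP90 and HSP70, 1 of 9 was called, ST13 (HIP, ENSG00000100380, chr22:40824535-40856639), which stabilizes the ADP state of HSP70. Over all tested genes 5.57% were called higher, so 1 call among 9 does not set this group apart. ST13 was at 182, 194 and 192 FPKM with 2KR-MYB against 156, 157 and 165 FPKM with ANAA-MYB, without overlap. Its log2 fold change of 0.25 ± 0.047 was the smallest among the called members (adjusted p = 0.0071, limma), and with 1 library left out the adjusted p was 0.0102 to 0.0336.

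Several other co-chaperones lay in the same direction without passing, at adjusted p from 0.0101 to 0.0647 (limma). CHORDC1, an HSP90 partner with a CHORD domain, was at 193, 199 and 179 FPKM against 142, 148 and 165 FPKM. Its libraries did not overlap, and its log2 fold change was 0.32 ± 0.067 (adjusted p = 0.0101, limma). Without ANAA-MYB replicate 3 the adjusted p of CHORDC1 was 0.00591. STIP1 (HOP), the adaptor between HSP70 and HSP90, was at 260, 290 and 279 FPKM against 228, 228 and 244 FPKM (log2 fold change 0.24 ± 0.056, adjusted p = 0.0157, limma). AHSA1, the activator of the HSP90 ATPase, was at 115, 116 and 112 FPKM against 91.9, 103 and 100 FPKM (0.22 ± 0.053, adjusted p = 0.0193, limma). Neither STIP1 nor AHSA1 overlapped between the rescues. FKBP4, an immunophilin of steroid receptor complexes, was at 83.4, 90.0 and 82.9 FPKM against 69.9, 71.1 and 82.0 FPKM (0.20 ± 0.069, adjusted p = 0.0647, limma), with the replicate 3 library of ANAA-MYB just under the 2KR-MYB range.

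CDC37, which loads protein kinases onto HSP90, went the other way. It was at 161, 176 and 159 FPKM with 2KR-MYB against 184, 190 and 198 FPKM with ANAA-MYB. All ANAA-MYB libraries lay above all 2KR-MYB libraries, and the log2 fold change was -0.21 ± 0.054, which did not pass (adjusted p = 0.0264, limma). The other 3 gave smaller values, 0.066 for FKBP5, 0.042 for PTGES3 (p23) and -0.12 for UNC45A, the myosin chaperone. The ratio of FKBP5 to FKBP4, immunophilins with opposite effects on the glucocorticoid receptor, was 0.666 ± 0.026 with 2KR-MYB and 0.732 ± 0.024 with ANAA-MYB, without overlap (exact permutation p = 0.1, adjusted 0.15).

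HSPE1 and HSPD1 encode HSP10 and HSP60, the lid and the barrel of the mitochondrial chaperonin, and lie head to head on chromosome 2 with 105 bases between their start sites. HSPE1 (ENSG00000115541, chr2:197500379-197503449) was called, at 683, 684 and 709 FPKM with 2KR-MYB and at 485, 554 and 554 FPKM with ANAA-MYB (log2 fold change 0.38 ± 0.064, adjusted p = 0.00372, limma). HSPD1 (ENSG00000144381, chr2:197486584-197500274) was at 875, 942 and 876 FPKM against 708, 788 and 841 FPKM and was not called (0.21 ± 0.072, adjusted p = 0.0677, limma). Both genes were apart between the rescues and in the same direction. The adjusted p of HSPE1 was 0.0136 to 0.0173 with a 2KR-MYB library left out and 0.00794 to 0.0093 with an ANAA-MYB library left out.

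The ratio of HSPD1 to HSPE1 was 1.28, 1.38 and 1.24 with 2KR-MYB and 1.46, 1.42 and 1.52 with ANAA-MYB. It was lower in each 2KR-MYB library than in any ANAA-MYB library (exact permutation p = 0.1, adjusted 0.15). A readthrough gene, HSPE1-MOB4, was at 1.19, 1.24 and 1.94 FPKM against 0.791, 0.613 and 0.306 FPKM, and none of 26 rows named as HSPE1 pseudogenes reached 1 FPKM. Reads shared with such copies could be split by the counting, so values of genes with many copies, such as HSPD1 (18 rows, 1 of them reaching 1 FPKM), HSPE1 and ST13 (17 rows), are uncertain to that extent.

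The small heat shock proteins bind unfolding proteins without ATP. HSPB1 (HSP27) was at 412, 417 and 237 FPKM with 2KR-MYB against 283, 309 and 276 FPKM with ANAA-MYB. The replicate 3 library of 2KR-MYB lay below all ANAA-MYB libraries while the other 2KR-MYB libraries lay above them, and the log2 fold change was 0.25 ± 0.20 (adjusted p = 0.379, limma). Without 2KR-MYB replicate 3 it was 0.52 (adjusted p = 0.00213, limma). HSPB11, listed under its RefSeq symbol IFT25 and known as a subunit of the intraflagellar transport complex, was at 83.4 ± 4.66 FPKM and 79.4 ± 3.29 FPKM (SD, n = 3), with a log2 fold change of 0.07. SERPINH1 (HSP47), the collagen chaperone of the ER, was at 107 ± 12.2 and 98.4 ± 2.07 FPKM, and its replicate 3 library of 2KR-MYB, at 93.6 FPKM, was the lowest of all 6.

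For some members the replicate 3 library of 2KR-MYB was far below the others of its rescue. Its FPKM was under 0.85 of the mean of the other 2KR-MYB libraries for 6 of the 46 members (13.0%), against 8.94% of all tested genes and 4.83% of those averaging 10 FPKM or more. The 6 were HSPB1 (0.571), DNAJB1 (0.673), HSPH1 (0.799), BAG3 (0.819), SERPINH1 (0.82) and DNAJB4 (0.838). Of these, HSPH1, DNAJB1, BAG3 and DNAJB4 were called higher in the 2KR-MYB rescue with that library included. Over the 46 members the median ratio was 0.978, and over all tested genes 1.02. Outside the list, HSPA6 (0.378) and CRYAB (0.438) had the lowest ratios among the other folding genes tested. The part of this library in the differences is given by the values without it: they were larger for HSPH1 (0.84), DNAJB1 (0.94), DNAJB4 (0.93), BAG3 (0.88) and HSPB1 (0.52).

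Counted by which library was the lowest of its rescue, replicate 3 of 2KR-MYB did not stand alone. It was the lowest for 20 of the 46 members, and replicate 1 of 2KR-MYB was the lowest for 21. In the ANAA-MYB rescue, replicate 1 was the lowest for 31 members (67.4%, against 38.3% of all tested genes), at a median of 0.966 of the mean of its rescue. Without ANAA-MYB replicate 1 the median log2 fold change of the members was 0.14, and 6 members were called.

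HSF1, the main factor of the heat shock response, and HSF2, a relative active in development, did not differ past the threshold, and neither did HSBP1, a small protein that binds HSF1. HSF1 was at 30.5, 32.0 and 30.9 FPKM with 2KR-MYB against 34.1, 32.8 and 34.1 FPKM with ANAA-MYB. It was slightly lower in each 2KR-MYB library than in any ANAA-MYB library (log2 fold change -0.11 ± 0.046, adjusted p = 0.114, limma). HSF2 was at 16.8, 16.0 and 18.0 FPKM against 15.4, 15.7 and 15.4 FPKM and lay the other way, without overlap (0.12 ± 0.057, adjusted p = 0.162, limma).

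The ratio of HSF1 to HSF2 was therefore 1.82, 1.99 and 1.72 with 2KR-MYB and 2.22, 2.08 and 2.22 with ANAA-MYB, apart between the rescues (exact permutation p = 0.1, adjusted 0.15). HSBP1 was at 76.3, 76.2 and 80.0 FPKM against 67.3, 72.5 and 56.6 FPKM, with the replicate 3 library of ANAA-MYB the lowest (0.25 ± 0.084, adjusted p = 0.0645, limma). These are levels of mRNA, and the activity of a heat shock factor is not measured by them.

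The CCT complex is built of stacked rings of 8 different subunits and folds actin and tubulin, and 0 of the 8 passed the threshold in limma. At an unadjusted p under 0.05, 2 subunits were higher and 0 lower, a number of higher ones close to the background of 17.8%. Their median log2 fold change was 0.031. CCT5 was at 638, 688 and 693 FPKM with 2KR-MYB against 597, 628 and 489 FPKM with ANAA-MYB, apart by a narrow margin (0.24 ± 0.093, adjusted p = 0.0883, limma). TCP1 (CCT1) was at 556, 616 and 537 FPKM against 463, 512 and 499 FPKM, also without overlap (0.21 ± 0.067, adjusted p = 0.0491, limma). CCT7 gave 0.12 with its libraries barely apart, and CCT2, CCT3, CCT4, CCT6A and CCT8 overlapped, with values from -0.085 to 0.035.

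The summed FPKM of the 8 subunits was 3283, 3452 and 3345 with 2KR-MYB and 3087, 3264 and 3174 with ANAA-MYB, so the highest ANAA-MYB sum lay just under the lowest 2KR-MYB sum. CCT4 was the lowest subunit in all 6 libraries, and CCT5 the highest in all but ANAA-MYB replicate 3, where TCP1 was. The ratio of the highest to the lowest subunit was 2.47 ± 0.11 with 2KR-MYB and 2.18 ± 0.40 with ANAA-MYB (exact permutation p = 0.3). Rings hold 1 copy of each subunit, and the transcripts did not show equal levels per length in either rescue.

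**Figure D3:**
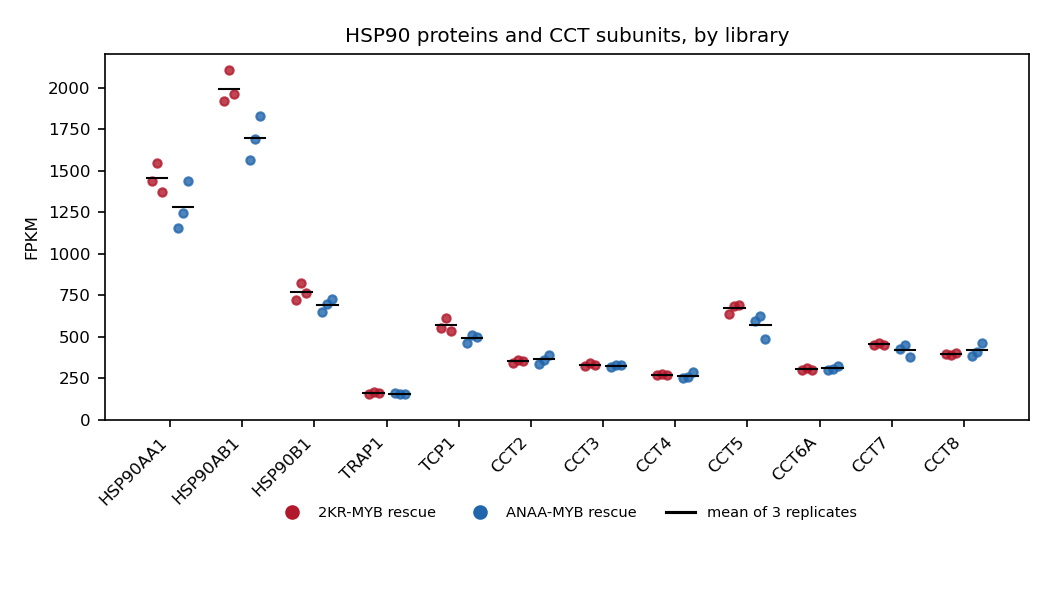
FPKM of the 4 HSP90 genes and the 8 CCT subunits, 1 point per library (red for the 2KR-MYB rescue, blue for the ANAA-MYB rescue), with a line at the mean of 3 replicates and an axis that starts at 0. HSP90AB1 and HSP90AA1 stand above the rest, and the red and blue points of TRAP1, CCT2, CCT3, CCT4, CCT6A and CCT8 overlap.

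TCP1 lies head to head with MRPL18, a gene for a mitochondrial ribosomal protein that is on the heat shock response list used further on, with 210 bases between their start sites on chromosome 6. One short heat shock element stands in both promoters, and the same 30 bases, chr6:159789815-159789844, are printed from either strand because they show 1 element shared by both genes.
TCP1: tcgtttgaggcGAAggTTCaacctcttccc
MRPL18: gggaagaggttGAAccTTCgcctcaaacga
The element begins 231 bases before the start of TCP1 and lies within the first transcribed bases of MRPL18. MRPL18, which is not a member, was at 168, 173 and 160 FPKM against 121, 120 and 126 FPKM and was called higher (log2 fold change 0.45 ± 0.047, adjusted p = 0.00049, limma). The value of TCP1 was 0.21, and the difference between these neighbours was not tested.

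Since each rescue is 1 clone, each member was set beside the up to 50 tested genes nearest to it on its chromosome. DNAJB6, toward the end of the long arm of chromosome 7, was the exception among the called members: its 29 neighbours had a median log2 fold change of 0.22, 86.2% had a value above 0, and 1 lay beyond DNAJB6 itself. DNAJB9, on the same chromosome arm, had a neighbourhood median of 0.07. For the other 9 called members the medians lay between -0.087 (DNAJB1) and 0.031 (BAG3), and for HSPH1, DNAJB1, DNAJB2 and BAG3 none of the 50 neighbours lay beyond the member. CDC37 and HSF1, the members lower in the 2KR-MYB rescue in every library, lay in stretches whose medians were themselves below 0, at -0.12 and -0.13, and 14 and 26 of their 50 neighbours were lower still. The part of the neighbourhood in these differences was not tested.

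The wider folding network was followed in 8 lists of genes that are not members, 124 genes in all, of which 106 were tested and 13 were called higher and 7 lower, 2 of the 7 (HSPA1A and HSPA1B) on values listed at 0. These 20 calls fell to 12 without 2KR-MYB replicate 1 or 2 and to 13 without any 1 of the ANAA-MYB replicates. Over all tested genes 5.57% were called higher and 7.42% lower. The share of higher calls on the lists stood above this background, and the share of lower calls was close to it. Single lists with 1 or 2 calls are too small to be set against these shares. In the ER folding list 5 of 17 were higher and 0 lower (limma; 8 higher and 2 lower at an unadjusted p under 0.05). HERPUD1, a component of ER-associated degradation, was higher by 0.67 ± 0.070 (adjusted p = 0.00049, limma), the secreted ER stress protein MANF by 0.59 ± 0.071 (0.000884) and the degradation adaptor SEL1L by 0.40 ± 0.055 (0.00166). The ER HSP70 HSPA5, on which the 3 ER HSP40 members act, was at 519, 607 and 486 FPKM with 2KR-MYB against 592, 603 and 596 FPKM with ANAA-MYB, and overlapped (-0.16 ± 0.079, adjusted p = 0.179, limma). With any 1 library left out, 3 of the ER folding genes stayed called. PDIA4, another of the 5, lies on chromosome 7, and its 50 neighbours had a median log2 fold change of 0.23. Of these neighbours 84.0% had a value above 0, and 17 lay beyond PDIA4 itself, at 0.32. The neighbourhood medians of HERPUD1, MANF, SEL1L and XBP1, the others called, were 0.008, -0.12, 0.048 and -0.033. The part of the neighbourhood in these differences was not tested.

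The heat shock response list, mostly of genes known to be induced by heat and with the heat shock factor gene HSF4, had 6 of 15 higher and 2 lower. Over all tested genes the shares were 5.57% and 7.42%. HSPB8, the small heat shock protein that works with BAG3, was at 4.59, 4.92 and 3.04 FPKM against 0.947, 1.06 and 0.879 FPKM (1.38 ± 0.15, adjusted p = 0.000511, limma). The 2 lower genes were HSPA1A and HSPA1B, the inducible HSP70 genes, listed at 0 in all 3 2KR-MYB libraries and at 390, 411 and 324 FPKM and 219, 232 and 185 FPKM in the ANAA-MYB libraries. They are near-identical copies whose reads the counting may split, so the division between them is uncertain. Whether the exact 0 is an absence of the transcript or a failed estimate cannot be told from FPKM values, so both lower calls are open to that doubt.

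The HSP70 family list held 2 of 11 higher, HSPA4L (0.44 ± 0.087, adjusted p = 0.00802, limma) and HSPA13 (0.30 ± 0.057, adjusted p = 0.00704, limma), and 2 lower, again HSPA1A and HSPA1B with the same doubt about the 0. The constitutive HSP70 gene HSPA8 was at 2542, 2496 and 2304 FPKM against 2566, 2720 and 2931 FPKM (-0.16 ± 0.074, adjusted p = 0.145, limma). Of the 28 tested HSP40 genes outside the members, 1 was higher and 2 lower, DNAJC15 by 0.73 ± 0.13 (adjusted p = 0.00436, limma) and DNAJC12 and DNAJC14 with -0.73 ± 0.076 (0.000468) and -0.29 ± 0.057 (0.00801). These counts are too small to be set against the background of 5.57% higher and 7.42% lower. The 16 other HSP90 co-chaperones had 1 higher, CACYBP (0.47 ± 0.086, adjusted p = 0.00578, limma), and 2 lower, among them the ubiquitin ligase gene STUB1 (-0.46 ± 0.053, 0.000692). The 50 neighbours of STUB1 had a median of -0.18, 20.0% of them had a value above 0, and 8 were lower than STUB1. With 1 library left out, the limma adjusted p reached 0.0323 for HSPA4L, 0.0304 for HSPA13, 0.0179 for DNAJC15, 0.0321 for DNAJC14 and 0.0273 for CACYBP, while DNAJC12 and STUB1 stayed under 0.01.

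Among 9 exchange factors and other small heat shock proteins 1 was higher, HSPB8, and 1 lower, BAG4 (-0.34 ± 0.071, limma adjusted p = 0.00986, and 0.0139 to 0.0368 with 1 library left out). The 13 genes of prefoldin and the cofactors of CCT had 0 calls in limma, with 2 higher and 1 lower at an unadjusted p under 0.05, and the 14 genes of mitochondrial protein quality control had 0, with 1 higher and 0 lower. Medians were 0.14 for the ER folding list, 0.35 for the heat shock response list, 0.01 for the other HSP40 genes, -0.10 for the other HSP90 co-chaperones, -0.036 for prefoldin and cofactors and -0.04 for mitochondrial quality control. Some genes stand on more than 1 list, among them HSPB8, CACYBP and 6 HSP70 genes shared with the heat shock response list. Of the 13 promoters found for that list, 7 held the short heat shock element (53.8%) and 2 a row of 3 units (15.4%).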

How the data were processed

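RNA of 6 K562 libraries was compared, 3 of the 2KR-MYB rescue and 3 of the ANAA-MYB rescue. The deposited values were FPKM per gene and replicate: per the labels' processing notes and the study's methods, the authors used bcl2fastq 2.18.0.12, Trimmomatic 0.36, TopHat2 2.1.1 on GRCh38, and Cuffdiff 2.2.1 of the Cufflinks suite. The libraries were poly(A)-selected and stranded. Which gene annotation and which library scaling the authors used is not given in the sources consulted here. No common step was found among values under 0.5 FPKM (at most 7.40% of the ratios between libraries fell within 1% of the most frequent one), so reads were not recovered, depth is unknown and no count test was run. The 12 other columns of per-sample values were not used here, and the authors' own comparisons were not used either.

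Of 58288 gene IDs, 55854 had a symbol, and HSPB11 was matched through its RefSeq symbol IFT25. The 12634 genes averaging 1 FPKM or more were tested two-sided with limma 3.58.1 (R 4.3.3) on log2(FPKM + 1), with the rescue as the term and a trended empirical Bayes prior. Calls were made at a Benjamini-Hochberg adjusted p below 0.01, the study's own limit, and fold changes on this scale understate those of low genes. On simulated data for this comparison (12634 genes), 67% of changes of 0.5 and 95% of changes of 1 on the log2 scale were recovered, with 1 false call. The simulation used normal noise at the spread limma had fitted. It changed far fewer genes than the 704 called higher and 938 called lower in the data. These rates are therefore not the error rates of the real calls. Ratios were compared by exact permutation with scipy 1.17.1, and figures drawn with matplotlib 3.10.9.

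Positions (found for 11541 tested genes) and promoters came from RefSeq tables of GRCh38.p14. Neighbourhoods were the 25 nearest tested genes on each side. Every member is named. Library values are given for the called members, the HSP90 genes, HSF1, HSF2 and members whose libraries were apart with a log2 fold change of at least 0.2 in size, and for HSPB1, which was added after its values were seen. Of each other list at most 3 called genes are named, besides HSPA1A, HSPA1B, HSPA5, HSPA8, MRPL18, HSPA6, CRYAB, XBP1 and PDIA4, which were added after their values were seen, except HSPA1A and HSPA1B. The members and lists were chosen with earlier results of these data known. The alternatives were other pseudocounts, filters, scalings, a robust prior, a replicate block, each of the 6 libraries left out and a threshold of 0.05.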

Additional observations from a re-analysis of the deposited data

How the results depend on the processing

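DNAJB4, DNAJB6, DNAJB11 and BAG3 passed in every alternative run. Against 11 members called, all of them higher, the count was 4 without a filter on low values, 18 (17 higher and 1 lower, CDC37) at a threshold of 0.05, and 5 to 8 with 1 library left out. It was 12 with pseudocounts of 0.1 or 0.01 and with a mean of at least 5 FPKM, 15 with upper quartile scaling and 16 with quantile normalization. At the threshold of 0.05, 1522 of all 12634 tested genes were higher and 1880 lower. Counts over all genes are not given here for the other alternatives. The counts of members and of the other lists therefore cannot be set against a background there. Without the filter more genes share the adjustment, and the variance prior is also fitted anew on them. Which of these lowered the count was not tested. The genes gained under scaling were CHORDC1, DNAJA1, STIP1 and AHSA1, with HSP90AB1 under quantile normalization. The median of all tested genes moved from -0.015 to 0.024 with upper quartile scaling and to 0.005 with quantile normalization. HSPH1 was lost without the filter alone, DNAJB1 also with the robust prior, and DNAJC3 and ST13 also with the replicate block and with each library left out. At 0.05, 1 CCT subunit (TCP1) passed.

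The 20 calls on the other lists became 12 without the filter and 12 to 16 with 1 library left out. The 5 ER folding genes became 3 with any 1 library left out (3 to 3), and the 6 of the heat shock response list became 3 without the filter.

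Values near 0 changed sign: DNAJA4 to -0.017 under quantile normalization, BAG2 to 0.001 and CCT6A to 0.019 under upper quartile scaling. With 1 library left out, DNAJA4 ranged from -0.076 to 0.216, PTGES3 from -0.006 to 0.083, CCT2 from -0.094 to 0.01, CCT4 from -0.008 to 0.1 and CCT6A from -0.053 to 0.008. The cause of these changes was not tested.

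With the replicate number as a block, 9 members were called. The numbers did not pair the libraries, since libraries with the same number deviated from their group means with correlations of -0.0523, -0.0353 and -0.0026. Depth is unknown, so the precision of low values such as DNAJA4 is too.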
